A study of Mus musculus with 24 samples.

Results

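The liver keeps blood glucose steady by making glucose between meals and by burning or storing it after meals, and 9 genes that control the traffic in both directions were followed in the livers of mice without major urinary proteins (Mup). The genes were taken by name, with earlier results of these data known, from 25746 genes listed in the count tables. All 9 were among the 12330 genes with enough reads to be tested. They were the gluconeogenic enzyme genes Pcx, Pck1, Fbp1 and G6pc, the glucose transporter gene Slc2a2, the glycolysis genes Pklr and Pfkfb1, the coactivator gene Ppargc1a and the amino acid enzyme gene Tat.

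RNA of whole liver was sequenced from 24 C57BL/6N mice aged 12 weeks, with 6 mice in each of 4 groups: wildtype males (mWT), Mup knockout males (mKO), wildtype females (fWT) and Mup knockout females (fKO). The knockout carries a CRISPR/Cas9 deletion of the entire Mup gene cluster that goes back to a single male founder, and heterozygous carriers were crossed with each other to obtain the mice. All mice ate chow ad libitum, and all passed through a short fast and a scan under isoflurane shortly before the liver was taken, knockouts and controls alike. The comparisons asked whether loss of Mup changed the transcripts of glucose control in either sex, whether it did so differently in the sexes, and how the sexes themselves differed.

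Between 15361901 and 26261394 reads per library were assigned to genes. The 22 annotated Mup genes took between 1.70% and 3.68% of the reads in mWT and between 0.344% and 0.555% in fWT, and at most 4.61e-05% in any knockout library. The hepatocyte markers Alb, Apoa1, Ttr, Apob, Cps1 and Hnf4a summed to between 94098 and 148615 CPM, the read count of a gene scaled to a common library total. The markers of adipocyte, kidney tubule, exocrine pancreas and skeletal muscle included 4 of 5 in each list with a median of at most 3 reads per library, and Lep and Pnlip had no read in any. The remaining marker of each list was Cidec, at up to 2.69 CPM, Lrp2, at up to 3.88, Cela1, at 8.90 to 31.0, and Mylpf, at up to 1.24 CPM. A pair of fKO mice, numbers 2 and 3, stood apart in the clock gene Arntl, at 16.9 and 15.6 CPM against 0.58 to 10.2 CPM in the other 22 mice, and they also held the lowest Slc2a2 levels of the study. Over the genes at large their read counts were the most alike of any 2 mice of one group, with a chi-square per gene of 8.07. For the other pairs within groups it lay between 15.7 and 71.8. The comparisons of fKO mice were therefore also made without that pair, a choice made after the levels were seen.

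Gluconeogenesis runs glycolysis backwards except at its irreversible steps, which have their own enzymes: pyruvate carboxylase (Pcx) and phosphoenolpyruvate carboxykinase (Pck1) lead from pyruvate to phosphoenolpyruvate, fructose bisphosphatase (Fbp1) removes a phosphate from fructose bisphosphate, and the catalytic subunit of glucose-6-phosphatase (G6pc) releases free glucose. In the fasted liver, glucagon acts through cyclic AMP and glucocorticoids act through their receptor to raise Pck1, G6pc and the coactivator Ppargc1a, and insulin lowers them by removing the forkhead factor Foxo1 from the nucleus. Glucose leaves and enters hepatocytes through the GLUT2 transporter encoded by Slc2a2, liver pyruvate kinase (Pklr) closes glycolysis, and the bifunctional enzyme encoded by Pfkfb1 makes or removes fructose-2,6-bisphosphate, which switches flux between the directions.

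Per kilobase of exon, the members spanned a wide range of levels. Pck1 was highest, at 1169 ± 246 CPM per kilobase (SD, n = 24), and Tat followed at 1020 ± 349, with mice of the 2 genes overlapping widely. Fbp1 reached 493 ± 57.1 CPM per kilobase and G6pc 289 ± 92.0. Slc2a2, at 91.1 ± 12.9, Pklr, at 80.3 ± 22.0, and Pcx, at 76.5 ± 11.4 CPM per kilobase, could not be ordered within their spread. Pfkfb1 at 12.6 ± 3.57 and the coactivator Ppargc1a at 2.87 ± 0.689 CPM per kilobase were lowest, and even Ppargc1a rested on 211 to 586 reads per mouse.

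**Figure D1:**
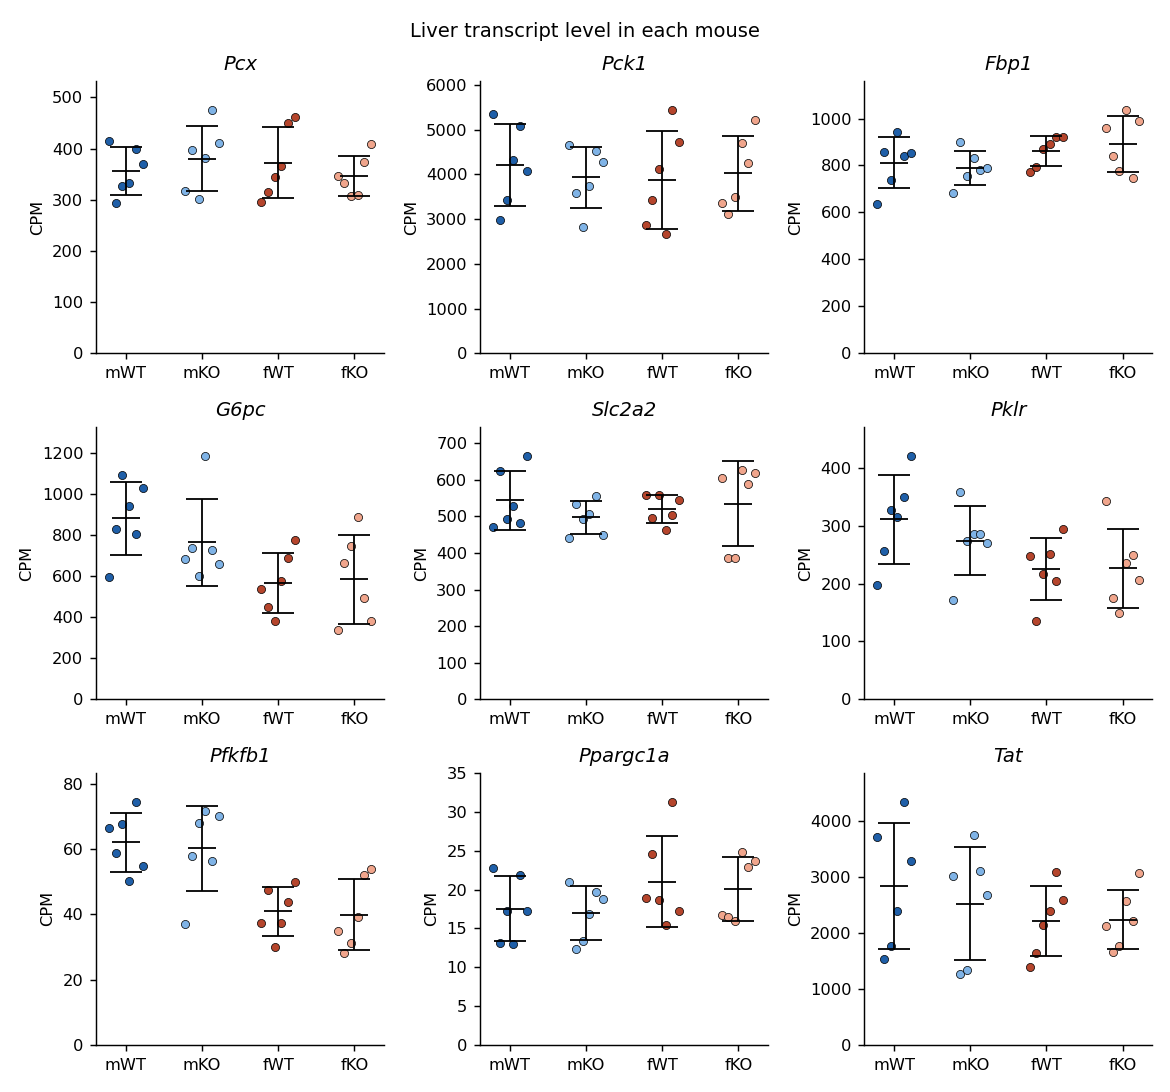
Level of each of the 9 genes in every mouse, in CPM from 0, for the 4 groups of 6 mice, with the mean and SD as black bars. The groups of each sex overlap in all 9 panels, Pfkfb1 is the gene whose 6 mWT points, from 50.1 to 74.5, all lie above the 6 fWT points, and 2 fKO mice sit apart near 386 CPM in the Slc2a2 panel.

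For none of the 9 genes was a difference between knockout and wildtype mice larger than the spread between mice detected, in either sex. In males, 0 of 9 members passed an unadjusted p of 0.01 (the limit used in the study) in edgeR's quasi-likelihood test, where 3.52% of all tested genes passed, and 0 of 9 passed a Benjamini-Hochberg adjusted p of 0.05, where 0.211% did. In females, the counts were 0 of 9 at both limits, against 0.876% and 0.0892% of all tested genes. No member passed even an unadjusted p of 0.05, which 10.6% of the genes passed in males and 4.87% in females, and DESeq2 called no member at either limit. No member separated mKO from mWT or fKO from fWT without overlap, which 1.09% and 0.349% of the genes did. Of the 9 log2 differences, 8 were below 0 in males, with a median of -0.10 against -0.0021 over all tested genes, and 3 were below 0 in females, with a median of 0.015 against -0.0026. Without fKO mice 2 and 3 the 9 female differences lay between -0.11, for G6pc, and 0.24, for Slc2a2, and Pklr moved from 0.0068 to 0.21.

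Among the gluconeogenic enzymes, G6pc (ENSMUSG00000078650, chr11:101367561-101377903, plus strand, GRCm38) ran from 596 over a median of 883 to 1090 CPM in mWT and from 599 over 704 to 1184 CPM in mKO. The 5 lower mKO mice lay between 599 and 733 CPM, below 5 of the 6 mWT mice, and mouse 4 lay far above them. The log2 difference in males was -0.21 with an SE of 0.23 and a 95% confidence interval of -0.67 to 0.26. Without mKO mouse 4 the difference was -0.37, and it still passed neither limit. In females, fWT ran from 382 over 556 to 773 CPM and fKO from 334 over 578 to 885 CPM, a log2 difference of 0.043 (95% confidence interval -0.43 to 0.51).

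Pck1 (ENSMUSG00000027513, chr2:173153048-173159273, plus strand), which makes phosphoenolpyruvate from oxaloacetate, ran from 2969 over 4200 to 5346 CPM in mWT and from 2825 over 4003 to 4658 CPM in mKO. In females it ran from 2663 over 3769 to 5434 CPM in fWT and from 3108 over 3880 to 5215 CPM in fKO. Mice of one group differed more than the group medians did, and the log2 differences were -0.10 in males (95% confidence interval -0.46 to 0.27) and 0.056 in females (-0.31 to 0.42). Fbp1 (ENSMUSG00000069805, chr13:62864753-62888282, minus strand) varied least of the 9 genes, and its intervals were the narrowest, -0.23 to 0.15 in males and -0.15 to 0.24 in females. Its group means were 812 ± 108 CPM in mWT, 790 ± 73.3 in mKO, 861 ± 65.2 in fWT and 891 ± 121 in fKO (SD, n = 6 each). Pcx (ENSMUSG00000024892, chr19:4510472-4621752, plus strand), which fixes carbon dioxide onto pyruvate in mitochondria, was the one member with a difference above 0 in males, 0.094 (95% confidence interval -0.15 to 0.34), and it had the lowest in females, -0.10 (-0.35 to 0.14).

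Slc2a2 (ENSMUSG00000027690, chr3:28697903-28731359, plus strand) ran from 472 over 511 to 665 CPM in mWT and from 442 over 500 to 557 CPM in mKO, a log2 difference of -0.13 (95% confidence interval -0.37 to 0.11). In fWT the mice lay between 463 and 559 CPM. In fKO they fell into mice 2 and 3, at 387 and 385 CPM, and the other four, between 589 and 626 CPM, so that no fKO mouse lay inside the fWT range. The log2 difference in females was 0.040 with all mice (95% confidence interval -0.20 to 0.28). Without mice 2 and 3 it was 0.24, with an edgeR quasi-likelihood unadjusted p of 0.0193 and a Benjamini-Hochberg adjusted p of 0.806. These 2 mice held the lowest Slc2a2 levels and were left out after the levels were seen, so these p-values are no independent test.

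Pklr (ENSMUSG00000041237, chr3:89136142-89146784, plus strand) ran from 198 over 322 to 422 CPM in mWT, from 172 over 280 to 360 CPM in mKO, from 136 over 233 to 296 CPM in fWT and from 149 over 221 to 343 CPM in fKO. The log2 differences were -0.18 in males (95% confidence interval -0.61 to 0.25) and 0.0068 in females (-0.42 to 0.44). Pfkfb1 (ENSMUSG00000025271, chrX:150588229-150643878, plus strand) ran from 50.1 over 62.6 to 74.5 CPM in mWT, from 37.1 over 62.9 to 71.8 CPM in mKO, from 29.9 over 40.5 to 49.95 CPM in fWT and from 28.0 over 37.0 to 53.9 CPM in fKO. Knockout and wildtype mice overlapped for both genes in both sexes, and the Pfkfb1 log2 differences were -0.043 in males and -0.037 in females. Exons of Pklr share 711 bases with Hcn3 on the opposite strand, which had mean levels of at most 0.16 CPM, and exons of Pfkfb1 share 123 bases with Apex2 on the opposite strand. The strand setting of the counting is not given in the sources used here.

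Ppargc1a (ENSMUSG00000029167, chr5:51454250-51567726, minus strand) ran from 13.0 to 22.8 CPM in mWT, 12.4 to 21.01 CPM in mKO, 15.4 to 31.3 CPM in fWT and 16.01 to 24.8 CPM in fKO. Tat (ENSMUSG00000001670, chr8:109990437-109999803, plus strand), the tyrosine aminotransferase that glucocorticoids induce in liver, differed most between mice of a group on the log2 scale. It ran from 1529 over 2837 to 4344 CPM in mWT, from 1259 over 2848 to 3745 CPM in mKO, from 1397 over 2276 to 3096 CPM in fWT and from 1653 over 2171 to 3080 CPM in fKO. With that spread the 95% confidence interval of the Tat knockout difference was -0.76 to 0.42 for males and -0.58 to 0.61 for females. Changes within those bounds were therefore not excluded with 6 mice a group.

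The knockout differences of the sexes were also compared with each other. The male minus female knockout effect lay between -0.25, for G6pc, and 0.20, for Pcx, and 0 of 9 members passed an unadjusted p of 0.01, 0.05 or an adjusted p of 0.05 in edgeR's quasi-likelihood test, where 1.16%, 5.96% and 0.00811% of all tested genes did, and DESeq2 called none at the limits of 0.01 unadjusted and 0.05 adjusted. Leaving out single mice moved the G6pc value between -0.42 and -0.094. Without fKO mice 2 and 3 the values lay between -0.39, for Pklr, and 0.14, for Pcx, with G6pc at -0.098. Slc2a2 alone then passed the unadjusted limit of 0.01, with a male minus female knockout effect of -0.37. Its Benjamini-Hochberg adjusted p was 0.242 in edgeR's quasi-likelihood test. That pair held the lowest Slc2a2 levels of the study, so leaving it out favours this call. In the knockout effect averaged over the sexes, a comparison added after the values were seen, 0 of 9 members were called at an unadjusted p of 0.01 or an adjusted p of 0.05, where 2.83% and 0.17% of all tested genes were. The lowest unadjusted p there was 0.557, and DESeq2 called no member.

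**Figure D2:**
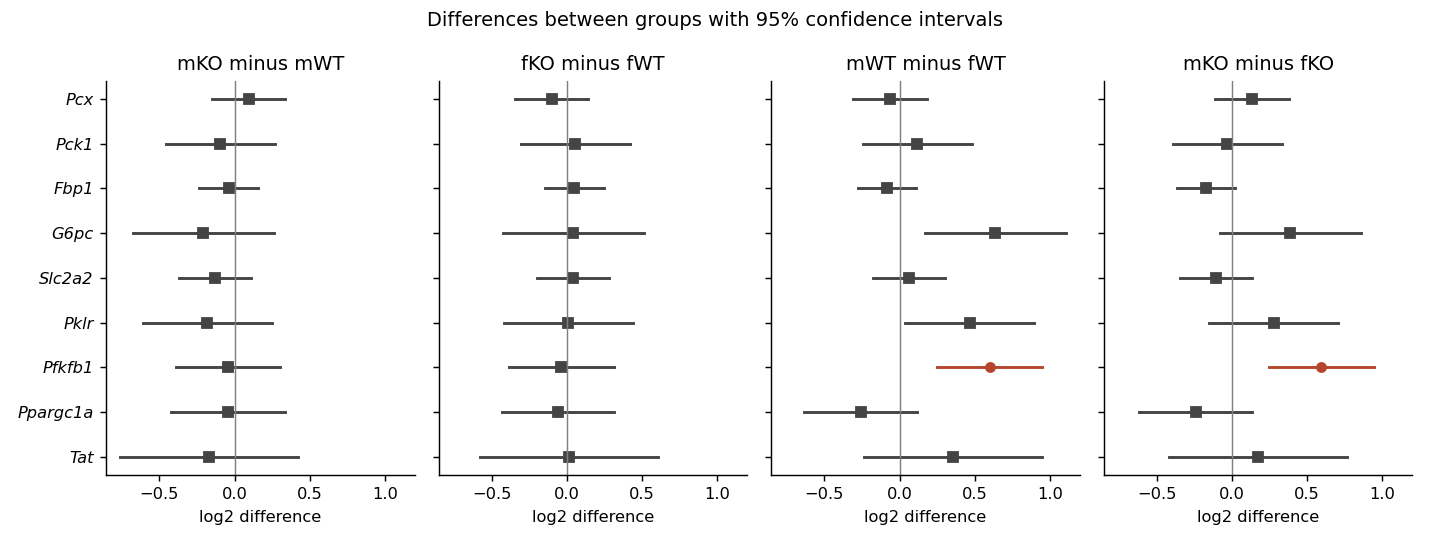
Log2 difference of each gene with its 95% confidence interval from edgeR, for knockout minus wildtype in males and in females and for males minus females in wildtype and in knockout mice. Red circles mark a Benjamini-Hochberg adjusted p below 0.05, which is reached by Pfkfb1 between the sexes, at 0.60 in wildtype and 0.59 in knockout mice, and by none of the knockout differences.

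Between the sexes, Pfkfb1 was higher in males in both genotypes. The 6 mWT mice, from 50.1 to 74.5 CPM, all lay above the 6 fWT mice, from 29.9 to 49.95 CPM, with the closest pair at 50.1 and 49.95 CPM. The log2 difference was 0.60 with an SE of 0.17, and edgeR's quasi-likelihood test gave an unadjusted p of 0.00173 and a Benjamini-Hochberg adjusted p of 0.0158. Pfkfb1 was the 1 member of 9 called at either limit, against 18.2% of all tested genes at the unadjusted limit and 17.3% at the adjusted one, and the 1 member without overlap, against 7.7%. The members' share was thus close to that of genes in general. The knockout and sex comparisons share their libraries and are not independent of each other.

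In knockout mice, Pfkfb1 again averaged 60.2 ± 13.0 CPM in males against 39.9 ± 10.9 in females (SD, n = 6 each), but the groups overlapped, since mKO mouse 1 at 37.1 CPM lay below 3 fKO mice, and 7.26% of the tested genes separated mKO from fKO. The log2 difference was 0.59 with a Benjamini-Hochberg adjusted p of 0.0192 in edgeR's quasi-likelihood test, and Pfkfb1 was the 1 member of 9 called, against 15.9% and 14.4% of all tested genes at the 2 limits. This call was lost without fKO mice 2 and 3, at 28.0 and 31.2 CPM, where the difference was 0.41, with an unadjusted p of 0.0271 and an adjusted p of 0.124 in edgeR's quasi-likelihood test. Without mKO mouse 4 or mouse 6 the difference was 0.54 both times, with unadjusted p of 0.006 and 0.00627 and adjusted p of 0.0514 and 0.0511 in the same test, so that only the adjusted limit was missed. Without fKO mice 2 and 3, Slc2a2 was called in its place, lower in mKO than in fKO (log2 difference -0.30, adjusted p 0.0316 in edgeR's quasi-likelihood test). Since that pair held the lowest Slc2a2 levels and was left out after the levels were seen, its removal favours this call. The Pfkfb1 difference between mWT and fWT holds no fKO mouse, so leaving out that pair could not test it, and it stayed at 0.60. Apex2, which shares 123 exon bases with Pfkfb1, was likewise higher in males, with means of 10.6 CPM in mWT, 10.2 in mKO, 6.52 in fWT and 6.36 in fKO. The part of shared reads in the Pfkfb1 difference was not tested.

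G6pc followed the same direction, with means of 881 ± 179 CPM in mWT against 566 ± 146 in fWT and 763 ± 212 in mKO against 583 ± 217 in fKO (SD, n = 6 each). Both pairs of groups overlapped. The log2 difference of 0.64 in wildtype mice had an unadjusted p of 0.0102, just outside the limit, and a Benjamini-Hochberg adjusted p of 0.0557 in edgeR's quasi-likelihood test, and DESeq2 put it inside both limits, with an adjusted p of 0.0182. In knockout mice it was 0.39, with a Benjamini-Hochberg adjusted p of 0.273 in edgeR's quasi-likelihood test. Without fKO mice 2 and 3 it was 0.54, and without mKO mouse 4 it was 0.22. Pklr differed by 0.47 in wildtype and 0.28 in knockout mice, with adjusted p of 0.128 and 0.404 in edgeR's quasi-likelihood test, and the knockout value fell to 0.078 without fKO mice 2 and 3. Averaged over the genotypes, again a comparison added after the values were seen, G6pc was 0.51 higher in males (SE 0.16, adjusted p 0.0183 in edgeR's quasi-likelihood test), Pfkfb1 0.60 higher (SE 0.12, adjusted p 0.000548) and Pklr 0.37 higher (SE 0.15, adjusted p 0.0583), and 2 of 9 members were called, against 27.4% of all tested genes at the unadjusted and 30.4% at the adjusted limit. The other 6 members had log2 differences between -0.25, for Ppargc1a, and 0.27, for Tat, in that comparison, and none passed either limit. DESeq2 also called Pklr there, for 3 of 9 members, whereas without fKO mice 2 and 3 its difference in edgeR was 0.27, with an adjusted p of 0.174.

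Other transcripts moved with sex beside these genes. The erythroid markers summed to between 149 and 260 CPM in males against 40.5 to 67.8 CPM in females, mostly through Alas2, the first enzyme of haem synthesis in red cell precursors, at 101 to 153 CPM in males and 8.48 to 19.3 in females. All 5 erythroid markers were higher in mKO than in fKO at an unadjusted p of 0.01 in edgeR's quasi-likelihood test, against 7.97% of all tested genes. In mWT against fWT 1 of 5 was higher, against 9.03%. Kupffer cell markers summed to between 63.4 and 176 CPM in males against 98.02 to 219 CPM in females, stellate markers to between 154 and 284 against 201 to 305 CPM, and 3 of 5 in each list were lower in males when the genotypes were averaged. So were 2 of 5 endothelial and 2 of 3 tested cholangiocyte markers, whereas the 1 tested marker each of adipocyte, kidney tubule and exocrine pancreas was higher in males. At the same unadjusted limit of 0.01, 27.4% of all tested genes differed in either direction in that comparison. With so few markers a list, these counts say little about a cell type. The hepatocyte markers summed to between 94098 and 127325 CPM in males against 98823 to 148615 CPM in females. The part of these differences in the male and female values of the 9 genes was not tested, and in RNA of whole liver fewer cells of a type and less RNA per cell cannot be told apart.

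Mice of one group differed most in Tat, with a within-group SD of 0.53 on the log2 scale, then in G6pc, 0.41, Pklr, 0.38, Pck1 and Ppargc1a, both 0.33, and Pfkfb1, 0.31. Pcx and Slc2a2, both 0.22, and Fbp1, 0.17, were close to the median of 0.19 over all tested genes, and the Tat SD was larger than that of 97.5% of them. To see which genes varied together, each gene's deviation from its group mean was correlated over the 24 mice for all 36 pairs of members. Values of r and the permutation p below come from 100000 two-sided permutations of mice within groups, adjusted over the 36 pairs.

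Pck1, Tat, Ppargc1a and Pcx varied together from mouse to mouse in 5 of their 6 pairs. Pck1 and Tat had a Pearson's r of 0.75 and a Spearman's rho of 0.77, with permutation p of 3e-05 and 1e-05, of which the latter is the smallest the permutations can give, and adjusted p of 0.00108 and 0.00036. Within the groups, r was 0.92 in mWT, 0.71 in mKO, 0.67 in fWT and 0.93 in fKO, so the relation was above 0 in all 4. Pck1 also rose with Ppargc1a, r = 0.74 and rho = 0.72 (permutation p 0.00028 and 0.00025, adjusted 0.00504 and 0.0045), and with Pcx, r = 0.68 and rho = 0.67 (permutation p 0.00111 and 0.00112, adjusted 0.0133 and 0.0101). Tat rose with Ppargc1a, r = 0.65 and rho = 0.71 (adjusted permutation p 0.0144 and 0.00816), and with Pcx, r = 0.65 and rho = 0.66 (adjusted permutation p 0.0148 and 0.012). Within each sex alone, with 12 mice, no pair passed after adjustment, but r of Pck1 and Tat was 0.81 in males and 0.77 in females (permutation p 0.00309 and 0.0096, adjusted 0.0821 and 0.115). The remaining pair of the 4, Pcx and Ppargc1a, had an r of 0.39 with an adjusted permutation p of 0.321.

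The 2 other pairs that passed both included Pklr. It rose with Slc2a2, r = 0.57 and rho = 0.48, and with Fbp1, r = 0.57 and rho = 0.40, with an adjusted permutation p of 0.0452 for both values of r and of 0.152 and 0.299 for rho. Neither pair passed without fKO mice 2 and 3, where r was 0.41 and 0.50 with adjusted permutation p of 0.313 and 0.147, while all 5 pairs among Pck1, Tat, Ppargc1a and Pcx still passed. In all, 7 of 36 pairs passed, all with r above 0. After the 2 mice farthest from the median of the first gene were left out, 4 of the 7 still passed: Pck1 with Tat, r = 0.83, with Pcx, r = 0.69, and with Ppargc1a, r = 0.66, and Pcx with Tat, r = 0.64. G6pc formed no such pair with any of the other 8 genes, with r between -0.15 and 0.23.

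**Figure D3:**
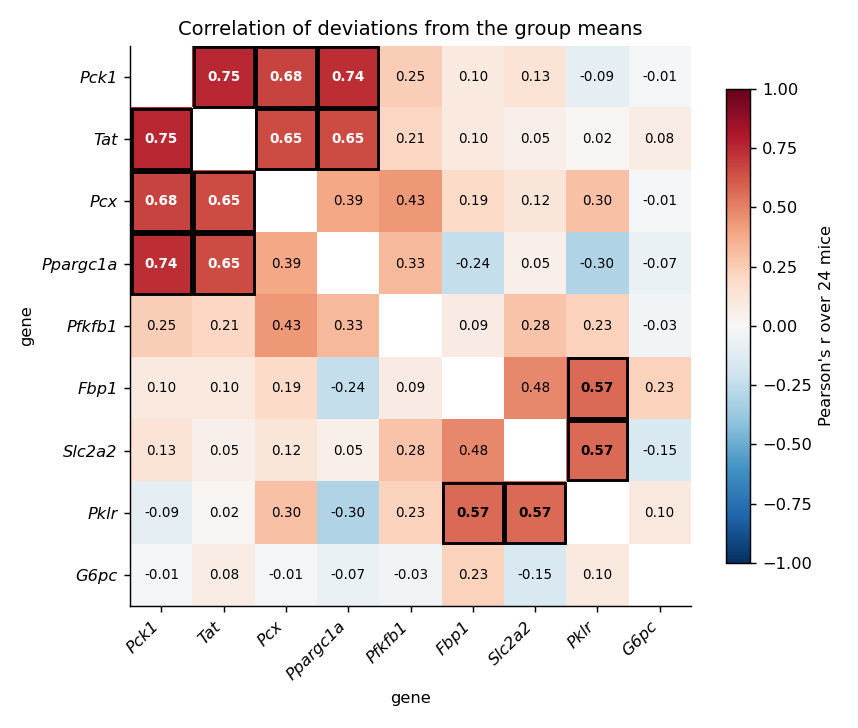
Pearson's r between the deviations of each pair of genes from their group means, over 24 mice, in a matrix coloured from blue (-1) to red (1). Framed bold values passed an adjusted permutation p of 0.05, and they form a block of 5 pairs among Pck1, Tat, Pcx and Ppargc1a with r from 0.65 to 0.75, with 2 further pairs of Pklr at 0.57.

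These genes share the depth of a library and its content of hepatocyte RNA, and both were compared with the deviations as a description. Over the 24 mice, r with the total count lay between -0.32, for Pfkfb1, and 0.17, for G6pc. With the summed hepatocyte markers, r was 0.61 for Pck1, 0.51 for Ppargc1a, 0.45 for Pcx, 0.40 for Pfkfb1 and 0.28 for Tat, and between -0.22 and 0.08 for the other 4. Most of that sum was Alb, with group medians between 81640 and 99964 CPM, so these r largely follow the Alb transcript. The part of hepatocyte content in the shared variation was not tested.

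Since Pck1, Tat and Ppargc1a varied together, the 250 bases before the transcription start of each are given from the RefSeq annotation of GRCm38.p6, 5′ to 3′ on the gene's strand, at chr2:173152823-173153072 (plus) for Pck1, chr5:51567726-51567975 (minus) for Ppargc1a and chr8:109990186-109990435 (plus) for Tat. Capitals mark a match to a motif searched on both strands: the cyclic AMP element TGACGTCA and its core TGACG, the E-box CACGTG, the forkhead motif TGTTTNC, the nuclear receptor core AGGTCA, the glucocorticoid core TGTTCT and the TATA box TATAAA, of which the full cyclic AMP element contains the core.
Pck1: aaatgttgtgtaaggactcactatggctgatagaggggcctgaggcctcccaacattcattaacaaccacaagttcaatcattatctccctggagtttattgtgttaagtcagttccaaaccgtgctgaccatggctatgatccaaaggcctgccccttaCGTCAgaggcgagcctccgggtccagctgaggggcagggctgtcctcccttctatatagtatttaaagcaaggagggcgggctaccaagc
Ppargc1a: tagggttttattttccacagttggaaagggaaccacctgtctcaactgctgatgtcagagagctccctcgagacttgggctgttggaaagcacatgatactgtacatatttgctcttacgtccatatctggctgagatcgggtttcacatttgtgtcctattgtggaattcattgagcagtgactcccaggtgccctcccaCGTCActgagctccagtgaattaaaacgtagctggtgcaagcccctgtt
Tat: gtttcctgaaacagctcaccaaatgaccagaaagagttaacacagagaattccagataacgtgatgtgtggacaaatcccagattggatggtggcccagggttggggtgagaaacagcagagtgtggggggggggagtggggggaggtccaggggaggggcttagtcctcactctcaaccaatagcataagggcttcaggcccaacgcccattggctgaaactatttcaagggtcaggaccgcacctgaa
Pck1 held the core on the opposite strand, CGTCA, 90 bases before its start, and Ppargc1a held the same letters 49 bases before its start. Tat held none of the motifs in this window. The core was present in 17.8% of all 32851 windows of this length, so its presence is a description of these letters and no measure of binding.

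The windows of the other members were searched in the same way. G6pc held a forkhead match, TGTTTGC, 141 bases before its start, the nuclear receptor core 54 bases before it and a TATA box 29 bases before it, motifs found in 17.8%, 14% and 12.4% of all windows. Slc2a2 held the nuclear receptor core 21 bases before its start, Pklr held it 151 bases before its first start and a TATA box 31 bases before its second start, and Pcx held an E-box 248 bases before its first start. Fbp1 held none. Over the 14 windows of the 9 genes, which include several starts for Pklr, Pcx and Pfkfb1, 2 held the cyclic AMP core, 4 the nuclear receptor core, 3 a TATA box and none the glucocorticoid core, which 16.1% of all windows hold.

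Outside the 9 genes, the transcripts that followed each member most closely over the 24 mice were named from the 3 highest r among the 12321 other tested genes, a description chosen by its size. For Pck1 the first was Foxo1, the forkhead factor that insulin restrains, at r = 0.88, followed by Dclre1b and Il6ra, both 0.85. For Tat they were Prob1 at 0.89, Klf15, a glucocorticoid-induced factor of amino acid breakdown, at 0.88 and Plbd2 at 0.84. Ppargc1a was followed by Ell2 at 0.86, Pptc7 at 0.83 and Rad54l2 at 0.82, and Pcx by Agpat3 at 0.87 and Atg2a at 0.84. The share of all other genes at an r of at least 0.6 was 1.29% for Pck1, 1.71% for Tat, 0.487% for Ppargc1a and 3.49% for Pcx.

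Foxo1 ran from 52.7 to 92.5 CPM in mWT, 41.2 to 64.4 in mKO, 39.7 to 83.3 in fWT and 39.4 to 86.5 in fKO, and its r with Pck1 was 0.64, 0.92, 0.99 and 0.96 within those groups. Klf15 ran from 92.9 to 165 CPM in mWT, 84.4 to 168 in mKO, 105 to 142 in fWT and 95.1 to 126 in fKO, and its r with Tat was 0.89, 0.90, 0.93 and 0.75. Both genes were picked for their high r in these same mice, so the values within groups describe that choice. Of the 17 listed regulators of gluconeogenic genes, 4 had an r of at least 0.6 with Pck1 (Foxo1, Foxo3, Cebpb and Klf15) and the same number with Tat, again Foxo1, Foxo3, Cebpb and Klf15. Of all other genes, 1.29% reached an r of 0.6 with Pck1 and 1.71% with Tat. The glucocorticoid receptor gene Nr3c1 and the liver factor gene Cebpa went the other way with Tat, at -0.61 and -0.64. An r of -0.6 or lower with Tat was held by 1.40% of all other genes. With Pck1, Nr3c1 had -0.54 and Cebpa -0.51. Of the 16 genes responsive to fasting or glucocorticoids, 3 reached an r of 0.6 with Pck1, highest for the phosphatidate phosphatase gene Lpin1 at 0.79. With Tat 2 did, highest for Tsc22d3 (the glucocorticoid-induced leucine zipper) at 0.72. The insulin receptor substrate gene Irs2 had the lowest r of that list with Pck1 and Tat, -0.53 and -0.45.

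The remaining members followed other transcripts. Slc2a2 was followed by Ak4 at 0.87 and by Gys2, the liver glycogen synthase, at 0.85, values that were 0.73 and 0.62 without fKO mice 2 and 3. Pklr was followed by Rpia of the pentose phosphate pathway at 0.84, Tkfc, the triokinase of fructose breakdown, at 0.81 and Tnks1bp1 at 0.78. Fbp1 was followed by Map2k3 at 0.84, Sod2 at 0.83 and Glrx5 at 0.82, Pfkfb1 by Cipc at 0.81, Ubr2 at 0.79 and Nfrkb at 0.76, and G6pc, which had the fewest close genes, by Prpsap2 at 0.74, Hsbp1l1 at 0.72 and Acy3 at 0.64. Only 0.114% of the other genes reached an r of 0.6 with G6pc.

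The relation of Slc2a2 to genes of the circadian clock depended on fKO mice 2 and 3. With all mice, of 12 tested clock genes, 5 had an r of at least 0.6 with Slc2a2 (Tef 0.77, Per3 0.76, Per2 0.75, Dbp 0.68 and Ciart 0.67) and 2 an r of -0.6 or lower (Arntl -0.82 and Clock -0.77), whereas 1.94% and 1.90% of all other genes lay beyond those limits. Per and Dbp transcripts and Arntl transcripts peak at roughly opposite times of day in liver. The r between Slc2a2 and Arntl was -0.82 in mWT, 0.19 in mKO, -0.51 in fWT and -0.98 in fKO, and without fKO mice 2 and 3 it was -0.52 over 22 mice. Without that pair none of the 12 clock genes reached 0.6 in size with Slc2a2. Their r then lay between -0.52 and 0.36, and 0.982% and 0.990% of all other genes lay beyond the limits. Pklr had an r of 0.69 with Per2, 0.67 with Per3 and -0.64 with Clock, which were 0.63, 0.63 and -0.54 without the pair. The time of day at which each liver was taken is not given in the labels, and its part in these values was not tested.

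**Figure D4:**
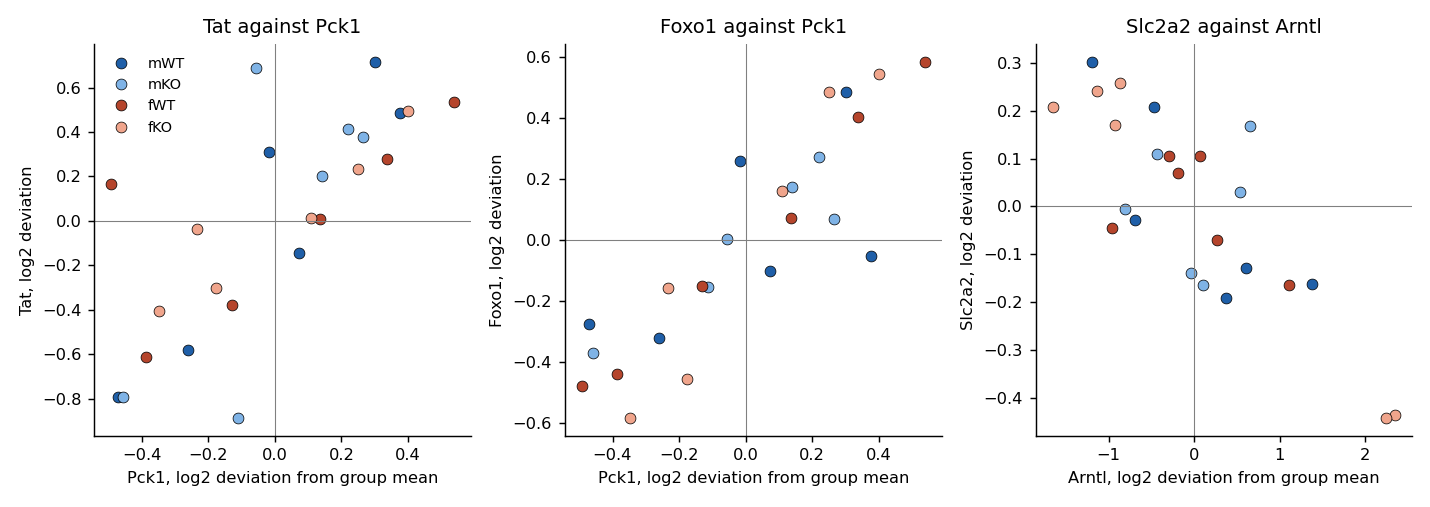
Deviation from the group mean on the log2 scale for each of 24 mice, coloured by group, for Tat against Pck1 (r = 0.75), Foxo1 against Pck1 (r = 0.88) and Slc2a2 against Arntl (r = -0.82). In the third panel the 2 fKO mice at the lower right, numbers 2 and 3, lie far from the rest, and without them r is -0.52.

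The wider pathways were read from lists of named genes. Under the knockout, 0 of 16 tested supply and exit enzymes (such as Pck2, the transaminases and the mitochondrial pyruvate carrier), 0 of 8 enzymes of the reversible steps, 0 of 23 genes of glycolysis entry and exit and pyruvate oxidation and 0 of 16 genes responsive to fasting or glucocorticoids passed an unadjusted p of 0.01 in either sex in edgeR's quasi-likelihood test. Where 3.52% of all tested genes passed in males, 1 of 17 regulators did, Sik1, a kinase that restrains the cyclic AMP response, at 16.6 ± 4.04 CPM in mKO against 33.0 ± 10.1 in mWT (SD, n = 6 each). Its log2 difference was -0.995, with an unadjusted p of 0.00549 and a Benjamini-Hochberg adjusted p of 0.217 in edgeR's quasi-likelihood test, and it did not pass 0.01 in 6 of the 24 fits that left out 1 mouse (mWT 2, 4, 5 or 6, mKO 1 or 6). Of 12 clock genes, 1 passed in males, Per2, at 16.9 ± 4.78 CPM in mKO against 36.6 ± 9.92 in mWT. Its log2 difference was -1.11, with an unadjusted p of 0.00462 and an adjusted p of 0.216 in edgeR's quasi-likelihood test, and no listed gene passed in females. The clock count in males was 0 without mWT mouse 5 or 6 or mKO mouse 5 or 6, 3 without mKO mouse 2, 2 without fKO mouse 2 or 3 and 5 without both of them. In that last fit 2 genes also passed the adjusted limit. The male comparison holds no fKO mouse, so the pair enters it only through what the 4 groups share in the fit, such as the estimate of spread. The pair was picked by its level of the clock gene Arntl, so clock counts without it describe that choice. The difference between the knockout effects, with 0 of 12 clock genes called at 0.01, had 6 without that pair. Apart from fits without single mice, the alternatives, this one included, called between 105 and 468 of all tested genes, against 143 in the main fit. For the knockout effect in males they called between 372 and 531, against 434. In the knockout effect averaged over the sexes 2 of 12 passed, against 2.83% of all tested genes. These were Arntl, higher by 1.49, and Cry2, lower (log2 difference -0.24), with adjusted p of 0.342 and 0.333 in edgeR's quasi-likelihood test. None passed without the pair. Of the 17 regulators, 2 passed 0.01 in that average, Sik1 and Esrra, both lower in knockouts, and 0 passed the adjusted limit. Their count at 0.01 was 1 to 2 without single mice and 0 to 2 over the other alternatives.

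Between the sexes, the 8 listed enzymes of the reversible steps, which serve both directions of the pathway, had a median log2 difference of 0.22 in wildtype and 0.26 in knockout mice against -0.0020 and -0.0045 over all tested genes. In wildtype mice 4 of 8 were higher in males at an unadjusted p of 0.01, against 9.03% of all tested genes in that direction: Gapdh by 0.29, Pgk1 by 0.25, Gpi1 by 0.24 and Pgam1 by 0.24. In knockout mice 6 of 8 were higher in males, against 7.97% of all tested genes in that direction: Gapdh by 0.51, Pgam1 by 0.39, Eno1 by 0.36, Tpi1 by 0.28, Gpi1 by 0.24 and Pgk1 by 0.22. At a Benjamini-Hochberg adjusted p of 0.05 in edgeR's quasi-likelihood test the counts were 3 and 4 of 8, against 17.3% and 14.4% of all tested genes in either direction. Single mice changed these counts. The 4 in wildtype mice became 2 without mWT mouse 4 or fWT mouse 1 or 2. The adjusted 3 became 1 without mWT mouse 3, 4 or 6 and 0 without fWT mouse 1. The 6 in knockout mice became 3 without mKO mouse 2, 4 or 5, without fKO mouse 2 or 3 or both, and with only the 2 groups in the fit. Ldha passed in neither genotype. Reads of Gapdh, Pgk1, Pgam1 and Ldha can be shared with processed pseudogenes, so their levels are uncertain to that extent.

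**Figure D5:**
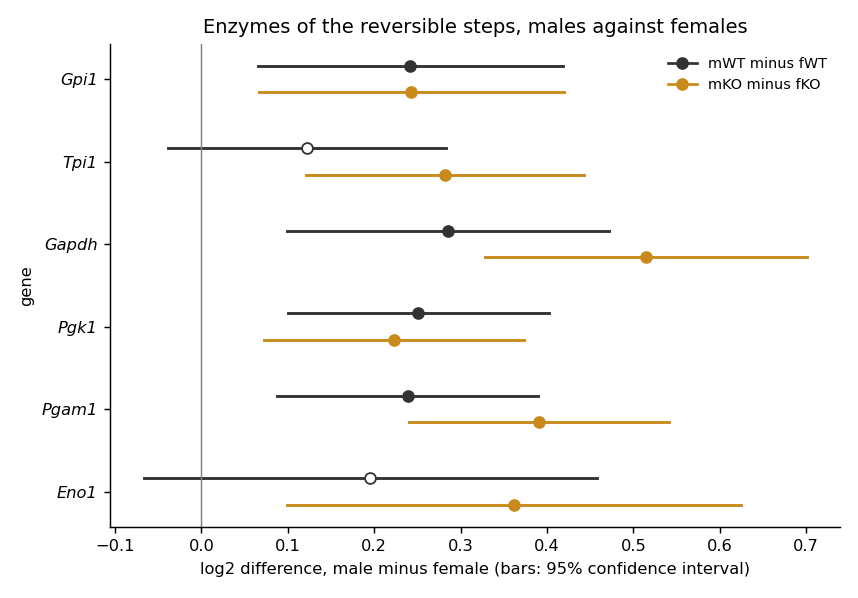
Log2 difference between males and females, with 95% confidence intervals from edgeR, for the 6 of 8 listed enzymes of the reversible steps that passed an unadjusted p of 0.01 in at least 1 genotype, in wildtype mice (black) and knockout mice (gold). Filled points passed that limit, 4 in wildtype and 6 in knockout mice. All 8 listed enzymes, drawn or not, had log2 differences above 0 in both genotypes.

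Among the supply enzymes, 4 of 16 differed between mWT and fWT at an unadjusted p of 0.01, against 18.2% of all tested genes, and 5 of 16 between mKO and fKO, against 15.9%. The mitochondrial pyruvate carrier genes were lower in males: Mpc1 ran from 44.3 to 60.1 CPM in mWT and from 63.3 to 87.8 CPM in fWT without overlap, a log2 difference of -0.57, and Mpc2 differed by -0.53 in both genotypes without overlap. The glycerol phosphate dehydrogenases were higher in males: Gpd1, the cytosolic enzyme, averaged 293 ± 32.6 CPM in mWT against 199 ± 34.3 in fWT and 365 ± 55.1 in mKO against 195 ± 46.2 in fKO (SD, n = 6 each), log2 differences of 0.56 and 0.90. Gpd2, the mitochondrial enzyme, was higher by 0.60 in wildtype males. Glycerol kinase, Gk, was lower (log2 difference -0.29) and the aspartate aminotransferase Got2 higher by 0.26 in knockout males.

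Of the 23 genes of glycolysis entry and exit and pyruvate oxidation, 3 differed between mWT and fWT, against 18.2% of all tested genes, and 3 between mKO and fKO, against 15.9%. Pfkfb3, a relative of Pfkfb1 whose enzyme favours synthesis of fructose-2,6-bisphosphate, was higher in wildtype males by 1.48, at 70.2 ± 35.4 CPM against 25.2 ± 13.8 (SD, n = 6 each), with overlap. The muscle pyruvate kinase gene Pkm was lower (log2 difference -0.42) and the hexokinase gene Hk2, at or below 1.65 CPM in every wildtype mouse, likewise (-1.09). In knockout mice, Khk, which phosphorylates fructose, was higher in males by 0.36, Pdha1 of pyruvate dehydrogenase by 0.28, and the transporter gene Slc2a9 differed by -0.30. Genes responsive to fasting or glucocorticoids gave 2 of 16 calls in each genotype, against 18.2% of all tested genes in wildtype and 15.9% in knockout mice. Irs2, which carries the insulin signal, was lower in males (log2 difference -1.21 in wildtype and -0.90 in knockout mice). Sgk1 was lower (log2 difference -0.61) in wildtype males, and the tryptophan dioxygenase gene Tdo2 was higher by 0.54 in knockout males. Of the regulators, Sik1 was lower in mKO than in fKO (log2 difference -1.36), without overlap, and of the 12 clock genes 1, Clock, was higher by 0.59 at an unadjusted p of 0.00988, with none past the adjusted limit. That count changed in 21 of the 24 fits without 1 mouse and ranged from 0 to 4. It was 6 without fKO mice 2 and 3, a pair picked by its level of a clock gene. Apart from fits without single mice, the alternatives called between 1706 and 2114 of all tested genes there, against 1956 in the main fit.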

How the data were processed

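Raw read counts per gene, not normalised, were deposited for each of the 24 liver libraries. Per the labels and the study's methods, the authors demultiplexed with bcl2fastq 2.19, trimmed with fastp 0.20, aligned TruSeq stranded mRNA reads with STAR 2.7a to GRCm38.p6 and made the counts with featureCounts. Annotation release, strand setting and handling of multi-mapping reads are not given in the sources used here.

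A gene was tested where 6 or more of the 24 libraries reached 0.66 CPM, which kept 12330 of the 25746 listed genes (7064 of those listed had no read in any library). All 4 groups were fitted together in edgeR 4.0.16 (R 4.3.3) with TMM scaling and the robust quasi-likelihood test on the older deviances. P-values were adjusted by Benjamini-Hochberg over all tested genes, and DESeq2 1.42.0 was an alternative. The fit was tested on simulated data. Correlations used log2(CPM + 0.5) after subtraction of group means. Exon lengths and positions came from GENCODE M21, which matched 25712 of 25746 identifiers, and promoters from RefSeq.

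All 9 members were named. Some other genes that the naming rules reach are not reported here. Of listed genes, at most the 5 with the lowest p at an unadjusted p of 0.01 were named per list and comparison. Eno1 and the genes named for their correlation within a list were chosen after their values were seen, as was the average over sexes or genotypes. The members and lists were chosen with earlier results of these data known. No library was left out. Replicates are separate mice, and totals between 15361901 and 26261394 reads set the counting precision. Mice of different groups with the same replicate number were treated as unpaired.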

Additional observations from a re-analysis of the deposited data

Results flagged for a closer look

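G6pc in mKO mouse 4 stood apart from the other 5 mice of its group, at 1184 CPM against a next highest value of 733 CPM. It was the 1 of 36 groups (9 genes in 4 groups of mice) in which the highest or lowest mouse lay that far from the rest relative to the range, and chance flags about 1 in 20 such groups. Without this mouse the log2 knockout difference of G6pc in males was -0.37 in place of -0.21.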

How the results depend on the processing

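The knockout comparisons in males and in females had 0 of 9 members called under every alternative run, leaving out each mouse included. The same held for the difference between the knockout effects except without fKO mice 2 and 3, where 1 member, Slc2a2, passed an unadjusted p of 0.01. Of 1620 recomputed log2 differences of members, 62 changed sign, none of them with an unadjusted p under 0.05. Between mWT and fWT, the members called at an unadjusted p of 0.01 rose from 1 to 2, adding G6pc, with DESeq2, with DESeq2 size factors, with filterByExpr, with non-robust dispersions, with the deviances of edgeR 4, with only the 2 groups in the fit and without the Mup genes, and ranged from 1 to 2 as single mice were left out. At an adjusted p of 0.05 they rose from 1 to 2 with DESeq2, non-robust dispersions and only the 2 groups in the fit, and ranged from 1 to 2 without single mice. Between mKO and fKO, the members called at an adjusted p of 0.05 fell from 1 to 0 with only the 2 groups in the fit, where edgeR's quasi-likelihood test gave Pfkfb1 an adjusted p of 0.0670, and ranged from 0 to 1 without single mice, being 0 without mKO mouse 4 or 6 (adjusted p 0.0514 and 0.0511 in the same test). Without fKO mice 2 and 3 the 1 member called there was Slc2a2, with a log2 difference of -0.30, in place of Pfkfb1. Both Slc2a2 calls followed the removal of the 2 mice with the lowest Slc2a2 levels, which favours them. The causes of these changes were not tested. The replicate numbers did not pair the mice, with correlations of same-numbered deviations between -0.36 and 0.22. With the replicate block, 2 members were called between mWT and fWT at both limits, and the knockout differences in females turned to -0.0033 for G6pc and -0.0039 for Pklr.

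Of the 36 pairs of members, 7 passed with all mice, 5 to 7 without single mice, 4 without the 2 farthest mice, 4 without subtraction of group means and 0 among the 12 males or the 12 females alone. Without fKO mice 2 and 3 the knockout difference in females turned to -0.11 for G6pc, 0.081 for Ppargc1a and 0.15 for Pfkfb1, and the difference between the knockout effects to -0.13 for Ppargc1a. Without single mice, the knockout difference in males ranged from -0.10 to 0.0080 for Fbp1, -0.12 to 0.044 for Ppargc1a and -0.10 to 0.064 for Pfkfb1. In females it ranged from -0.11 to 0.16 for G6pc, -0.033 to 0.18 for Pck1, -0.14 to 0.087 for Ppargc1a, -0.10 to 0.14 for Tat, -0.15 to 0.10 for Pklr, -0.0049 to 0.12 for Slc2a2 and -0.14 to 0.049 for Pfkfb1. The difference between the knockout effects ranged from -0.13 to 0.11 for Ppargc1a and -0.093 to 0.10 for Pfkfb1. The male minus female difference ranged from -0.12 to 0.0078 for Pcx and -0.0016 to 0.10 for Slc2a2 in wildtype mice, and from -0.10 to 0.053 for Pck1 in knockout mice.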
